A study of Mus musculus with 12 samples.

Results

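The interferon-stimulated effector genes are the transcripts that a cell makes when it has sensed interferon: proteins that bind viral RNA, block viral particles, tag other proteins with the ubiquitin-like modifier ISG15 or present antigen. Of 39 such genes listed, 34 were measured here. They were chosen by name, from results already known for these same arrays, and each was read from 1 probe set that carries its symbol alone, the brightest by mean over all 12 arrays. The counts below therefore describe the chosen genes and are not independent evidence of their direction. Isg15, Irgm2, Igtp and Gbp2 have probe sets that the platform annotation pairs with several symbols, and Ifi44 has no single-symbol probe set. The levels of these 5 genes were therefore not analysed, and only their promoters were read.

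The study used D3, an established line of mouse embryonic stem (ES) cells, as a clone, and set a short treatment of embryoid bodies (EBs) with all-trans retinoic acid (ATRA), a vitamin A metabolite that directs differentiation, against its solvent. The 4 groups of 3 arrays, labelled as biological replicates, were undifferentiated ES cells at day 0, untreated EBs at day 4, day 4 EBs with 12 h of DMSO, and day 4 EBs with 12 h of 5 µM ATRA. EBs are aggregates in which ES cells begin to differentiate; here they formed without leukaemia inhibitory factor in bacteriological dishes. All groups share 1 clone, and the ES medium held fetal bovine serum. From the labels it is unclear if the 12 h fell inside the 4 days or followed them. No agent in the labels is an interferon or a virus, and no feeder layer is named in them. Nothing says that the replicates came from separate cultures beyond the word biological, so p-values measure the spread between these samples.

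Values are on the log2 scale, inferred from their range of 2.30 to 14.7, over 19938 genes. Array medians lay between 7.756 and 7.865, and replicate arrays correlated at 0.996 to 0.999 across genes. The spread of values was narrowest on replicate 2 of the ES cells and of the untreated EBs. The counts with both left out are in the closing section. The pluripotency factor genes Pou5f1 and Nanog averaged 13.33 ± 0.02 and 13.47 ± 0.07 in the ES cells (SD, n = 3), and the mean of 10 pluripotent cell markers was 12.54 to 12.59 on the ES arrays, 12.69 to 12.75 on the untreated EB arrays, 12.73 to 12.76 with DMSO and 12.54 to 12.56 with ATRA. From ES cells to untreated EBs, Sox2, Utf1, Dppa5a and Fgf4 of these 10 were called higher and 0 lower. Over all genes, 17.8% were called higher and 16.9% lower. A difference below is the second-named group subtracted from the first, with its standard error from limma's fit over all 12 arrays; a gene is called where its Benjamini-Hochberg adjusted p over all 19938 genes is under 0.05.

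Type I interferons bind a receptor made of Ifnar1 and Ifnar2, whose kinases Jak1 and Tyk2 phosphorylate Stat2. It joins Irf9 in a complex that binds the interferon-stimulated response element (ISRE) in the promoters of the effector genes. Interferon gamma acts on the gamma-activated site (GAS), the route by which Irf1 and the immunoproteasome genes are best known to be induced. Mouse ES cells are known for making little interferon and responding weakly to it, whereas fibroblasts do both well.

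The promoter letters show where those elements sit in the listed genes, including those whose levels were not analysed. RefSeq windows of 300 bases (250 before to 50 after the annotated start, assembly GRCm38.p6, gene strand) were matched for 32 of the 39 genes. On both strands, 2 motifs were searched: the ISRE core, GAAA followed by any 2 bases and GAAA (TTTC, 2 bases and TTTC on the other strand), and the GAS, TTCNNNGAA, which reads the same on both strands. The ISRE core lay in the windows of 14 of the 32 genes (43.8%), against 1079 of all 27025 genes in the table (3.99%). The GAS lay in 9 of the 32 (28.1%), against 9.55% of all genes. Among the 27 measured genes with a window, 10 (37%) held an ISRE core and 7 (25.9%) a GAS. A gene counted if any of its windows held the motif. A match is a run of letters, and no binding was measured here.

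The following 7 stretches run 30 bases to each side of the matches, cut at the window's edge, with the matched bases in capitals. The first 4 are the measured genes with 2 ISRE cores that fell at least 1.5-fold from ES cells to EBs, the next is the gene with the lowest EB minus ES difference, and Stat2 and Irf1 are a pair of transcription factor genes that were not called there.
Gbp3: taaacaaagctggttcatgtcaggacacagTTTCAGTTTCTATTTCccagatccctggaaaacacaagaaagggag
Ifit1: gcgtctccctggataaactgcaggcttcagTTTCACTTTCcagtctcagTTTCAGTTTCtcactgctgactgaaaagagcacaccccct
Ifit3: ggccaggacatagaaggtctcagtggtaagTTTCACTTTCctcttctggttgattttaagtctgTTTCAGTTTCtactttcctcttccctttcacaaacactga
Irgm1: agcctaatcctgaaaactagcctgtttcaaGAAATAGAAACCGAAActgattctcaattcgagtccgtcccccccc
Trim30a: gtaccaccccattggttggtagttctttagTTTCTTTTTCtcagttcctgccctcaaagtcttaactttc
Stat2: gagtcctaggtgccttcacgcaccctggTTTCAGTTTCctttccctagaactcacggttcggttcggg
Irf1: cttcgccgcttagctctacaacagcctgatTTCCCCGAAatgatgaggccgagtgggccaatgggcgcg

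In order, these are chr3:142559969-142560044 on the plus strand for Gbp3, chr19:34640755-34640843 on the plus strand for Ifit1, and chr19:34583343-34583446 on the plus strand for Ifit3. Irgm1 is at chr11:48871405-48871480 and Trim30a at chr7:104465190-104465259, both on the minus strand. Stat2 is at chr10:128270248-128270315 and Irf1 at chr11:53769894-53769962, both on the plus strand. Gbp3, Trim30a and Irf1 have 2 windows each, and the stretch is from 1 of them. In Ifit1 and Ifit3 the cores are separate, and in Gbp3 and Irgm1 they overlap, so that 3 TTTC or GAAA repeats stand in a row. The Gbp3 stretch runs from base -75 to base 1 relative to the start and the Irgm1 stretch from -60 to 16. The Irf1 stretch holds a GAS and lies at -120 to -52.

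From ES cells to untreated day 4 EBs, 28 of the 34 measured genes fell and 0 rose. Over all genes tested, 16.9% were called lower and 17.8% higher in that comparison. The median difference of the 34 genes was -0.68, against about 0 (-4e-04) over all genes, and the range ran from -3.26 for Trim30a to 0.14 for Irf1. Of the 28, 18 fell at least 1.5-fold, beside 840 of all 19938 genes tested. The 6 of the 34 with no call were Stat2, Irf1, Trim25, Psmb8, Psmb9 and Samd9l. The 3 ES arrays stood above all 9 EB arrays for 27 of the 34 genes (79.4%), as they did for 14.3% of all genes; below all 9 they stood for 0 of the 34 and for 13.3% of all genes. The groups of this one comparison did not overlap in 29 of the 34 genes, all lower in EBs, as in 20.1% of all genes in that direction.

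Fibroblast markers were also listed with earlier results of these arrays known, so their count is a description. Of 15 such markers, 13 were called lower in EBs and 0 higher, with a median difference of -1.09. Their mean level was 9.49 to 9.53 on the ES arrays and 8.24 to 8.38 on the untreated EB arrays, against 8.84 to 8.95 and 7.76 to 7.84 for the 34 interferon-stimulated genes. S100a4 (-2.30), Fbln2 (-2.06), Prrx1 (-1.84), Thy1 (-1.82) and Dcn (-1.78) had the largest falls among them, and Col3a1 and Lum were not called. Lum read low on the scale, where a change can be understated. Of 11 macrophage and leukocyte markers, 3 were called higher and 1 lower, and of 9 endothelial markers, 3 and 1. Beside each of these marker lists, the shares called over all genes were 17.8% higher and 16.9% lower. The mean of the leukocyte list was 7.39 to 7.52 on the ES arrays and 7.34 to 7.49 on the untreated EB arrays, and that of the endothelial list 8.13 to 8.19 and 8.25 to 8.30. Of the defining markers, the collagen gene Col1a1 averaged 9.82 ± 0.15 in ES cells and 8.95 ± 0.10 in EBs, Lum 4.70 ± 0.17 and 4.78 ± 0.08, and the leukocyte gene Ptprc 6.02 ± 0.06 and 5.98 ± 0.17 (SD, n = 3). The part of other cells in the fall of the interferon-stimulated genes was not tested. In such bulk samples, fewer cells of a type and less RNA per cell cannot be told apart.

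**Figure D1:**
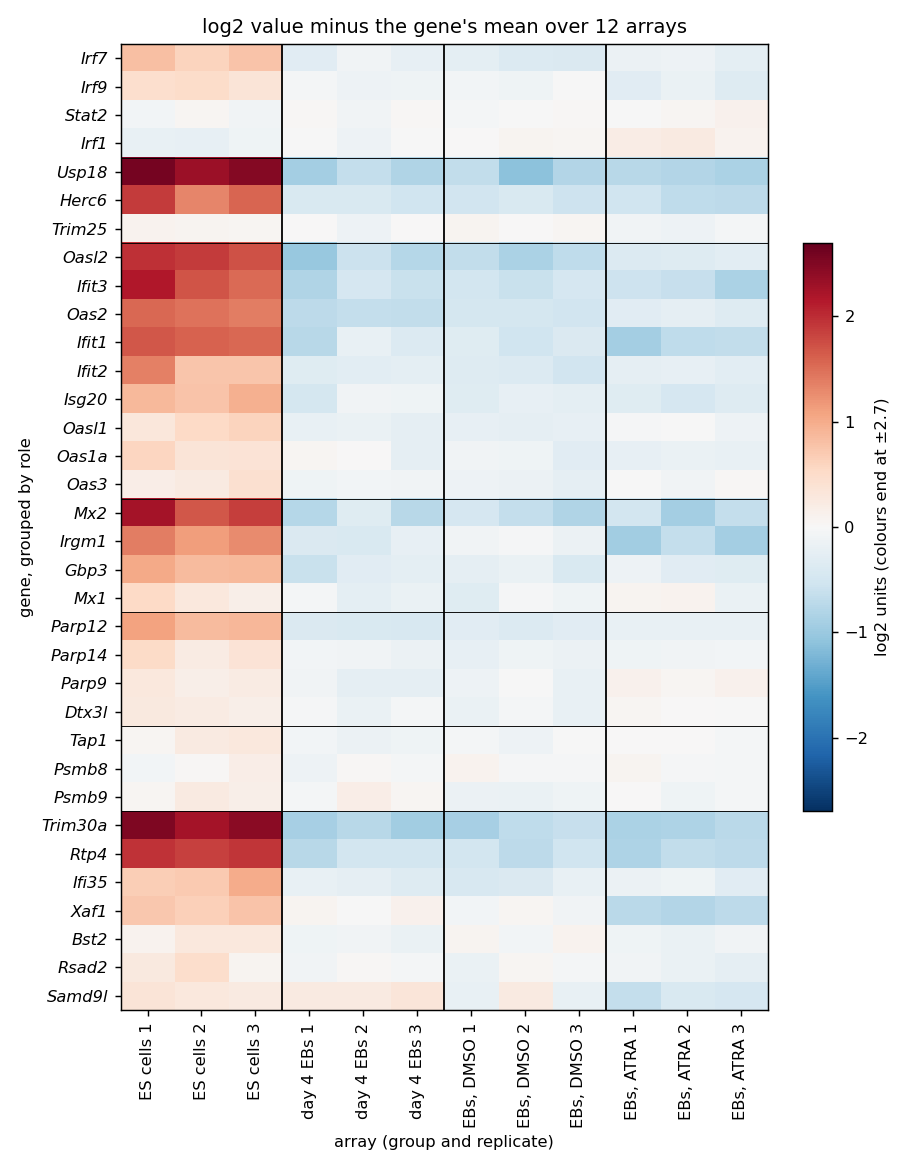
Level of each of the 34 measured genes on each of the 12 arrays, drawn as the difference in log2 units from the gene's mean over all arrays, with genes in rows ordered by role and arrays in columns by group. The 3 ES arrays are the high columns for most rows, and the 9 EB arrays differ little among themselves beside that step.

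The transcription factors split. Irf7, which amplifies interferon production and is itself strongly interferon-induced, read 7.84, 7.63 and 7.80 in ES cells, 6.71, 6.93 and 6.80 in untreated EBs, 6.76, 6.64 and 6.63 with DMSO and 6.87, 6.90 and 6.77 with ATRA. Every ES array lay above every EB array, and the EB minus ES difference was -0.94 ± 0.07, a fall of 1.92-fold (adjusted p = 5.35e-07). Irf9, the DNA-binding partner of Stat2, fell by 0.53 ± 0.06 (adjusted p = 1.48e-05), from a mean of 9.50 ± 0.08 to 8.97 ± 0.04 (SD, n = 3). Stat2 was 9.73 ± 0.08 in ES cells and 9.75 ± 0.07 in EBs, and the limma fit gave 0.02 ± 0.06 (adjusted p = 0.809), with overlapping groups. Irf1, an early transcription factor of the interferon gamma route, gave 0.14 ± 0.05 (adjusted p = 0.0742). Its other single-symbol probe set, lower in mean, gave 0.10 for the same comparison (adjusted p = 0.407 by limma). So 2 of the 4 fell, and the Stat2 and Irf1 values showed no such step.

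The ISG15 system conjugates ISG15 to other proteins and takes it off again. Usp18, the protease that removes ISG15 and also damps signalling at the receptor, read 10.61, 10.33 and 10.50 in ES cells and 7.10, 7.39 and 7.21 in untreated EBs. With DMSO it read 7.36, 6.91 and 7.23 and with ATRA 7.28, 7.23 and 7.16. The 3 ES values were all above 10 log2 units and the 9 EB values lay between 6.91 and 7.39, a difference of -3.24 ± 0.11 and a fall of 9.47-fold (adjusted p = 5.80e-10). Herc6, the main ISG15 ligase in the mouse, read 8.49, 7.91 and 8.17 in ES cells, 6.20, 6.19 and 6.07 in untreated EBs, 6.08, 6.19 and 6.05 with DMSO and 6.05, 5.92 and 5.88 with ATRA. It fell 4.11-fold (-2.04 ± 0.11, adjusted p = 3.64e-08), again with every ES array above every EB array. Trim25, a ubiquitin ligase that activates the RNA sensor RIG-I and also attaches ISG15, gave -0.11 ± 0.05 (adjusted p = 0.121) and was not called.

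The RNA-directed effectors fell in all 9 of the measured cases. The Ifit proteins bind foreign RNA 5′ ends and block its translation. Ifit1 read 9.09, 9.00 and 8.96 in ES cells, 6.65, 7.21 and 7.02 in untreated EBs, 7.08, 6.87 and 7.01 with DMSO and 6.48, 6.71 and 6.74 with ATRA. The EB minus ES difference was -2.06 ± 0.12 (adjusted p = 5.94e-08). Ifit3, of the same family, read 8.98, 8.51 and 8.35 in ES cells, 6.00, 6.36 and 6.21 in untreated EBs, 6.32, 6.20 and 6.37 with DMSO and 6.25, 6.20 and 5.96 with ATRA. It fell 5.35-fold (-2.42 ± 0.14, adjusted p = 6.37e-08). For both, the lowest ES array stood above the highest EB array. The separate ISRE cores printed above lie in front of these genes. Ifit2, another RNA-binding family member, read 8.04, 7.43 and 7.44 in ES cells, 6.35, 6.39 and 6.41 in untreated EBs, 6.34, 6.31 and 6.16 with DMSO and 6.43, 6.46 and 6.39 with ATRA. The EB minus ES difference was smaller, -1.26 ± 0.13 (adjusted p = 7.41e-06). Of its windows, 1 held a GAS, and an ISRE core lay in none of them. A close copy of Ifit3 exists in the mouse, and a probe set may not tell the copies apart.

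The Oas enzymes make 2′-5′ linked oligoadenylates on double-stranded RNA and so switch on RNase L, while the Oas-like proteins act without that activity or beside it. Oasl2 read 10.03, 9.96 and 9.77 in ES cells, 7.03, 7.49 and 7.29 in untreated EBs, 7.40, 7.21 and 7.38 with DMSO and 7.70, 7.71 and 7.77 with ATRA. It fell 6.27-fold (-2.65 ± 0.10, adjusted p = 1.60e-09). Oas2 read 10.59, 10.49 and 10.40 in ES cells, 8.33, 8.38 and 8.37 in untreated EBs, 8.55, 8.55 and 8.52 with DMSO and 8.72, 8.80 and 8.68 with ATRA. It fell 4.39-fold (-2.13 ± 0.05, adjusted p = 8.65e-11). No EB array of either gene reached the lowest ES array. Oasl1, which limits Irf7 translation, read 8.79, 9.02 and 9.08 in ES cells, 8.27, 8.30 and 8.24 in untreated EBs, 8.25, 8.23 and 8.26 with DMSO and 8.45, 8.47 and 8.34 with ATRA. It fell by 0.69 ± 0.07 (adjusted p = 5.80e-06). Oas1a (-0.50) and Oas3 (-0.38) fell by less than 1.5-fold, and the many close copies of Oas1 in the mouse may share probes with Oas1a. Isg20, an exonuclease that degrades single-stranded RNA, read 9.46, 9.35 and 9.54 in ES cells, 8.11, 8.49 and 8.46 in untreated EBs, 8.25, 8.37 and 8.32 with DMSO and 8.26, 8.13 and 8.24 with ATRA. Its ES arrays were again the 3 highest, and the EB minus ES difference was -1.10 ± 0.09 (adjusted p = 1.12e-06).

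All 4 measured GTPases fell. Mx2, a dynamin-like GTPase that traps viral particles, read 8.49, 7.92 and 8.11 in ES cells, 5.47, 5.93 and 5.49 in untreated EBs, 5.80, 5.61 and 5.44 with DMSO and 5.75, 5.34 and 5.61 with ATRA. The EB minus ES difference was -2.54 ± 0.16, a fall of 5.83-fold (adjusted p = 1.22e-07). Mx1 moved less, -0.49 ± 0.11 (adjusted p = 0.00369). Both Mx genes are annotated as transcribed pseudogenes in the RefSeq table, which follows the C57BL/6J assembly, so these are transcript levels only. Irgm1, an immunity-related GTPase that acts on membranes around intracellular bacteria, read 9.98, 9.72 and 9.89 in ES cells, 8.22, 8.20 and 8.39 in untreated EBs, 8.50, 8.56 and 8.45 with DMSO and 7.67, 7.97 and 7.69 with ATRA. Its ES arrays lay highest and its ATRA arrays lowest, and the EB minus ES difference was -1.60 ± 0.09 (adjusted p = 3.73e-08). Gbp3, a guanylate-binding protein induced by interferon gamma, read 8.01, 7.84 and 7.85 in ES cells, 6.39, 6.68 and 6.73 in untreated EBs, 6.75, 6.81 and 6.57 with DMSO and 6.85, 6.68 and 6.65 with ATRA. It fell 2.46-fold (-1.30 ± 0.09, adjusted p = 3.97e-07), and every ES array lay above every EB array. Irgm1 and Gbp3 are the pair with overlapping ISRE cores above.

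The PARP family members and Dtx3l, which place ADP-ribose or ubiquitin on other proteins, fell in 4 of 4 cases but mostly by little. Parp12, which restricts viral translation, read 10.29, 10.07 and 10.12 in ES cells, 8.82, 8.81 and 8.79 in untreated EBs, 8.91, 8.86 and 8.90 with DMSO and 9.01, 9.00 and 9.01 with ATRA. It fell 2.56-fold (-1.36 ± 0.05, adjusted p = 2.08e-09). Parp14 (-0.48), Parp9 (-0.42) and its ligase partner Dtx3l (-0.29) kept within 1.5-fold. Of the antigen processing genes, the peptide transporter subunit gene Tap1 fell (-0.31 ± 0.06, adjusted p = 0.00155), while the immunoproteasome subunit genes Psmb8 (-0.10 ± 0.07, adjusted p = 0.344) and Psmb9 (-0.10 ± 0.07, adjusted p = 0.302) were not called by limma.

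Trim30a, a ligase that restrains NF-kappaB signalling, had the lowest difference of the 34 genes. It read 9.69, 9.42 and 9.60 in ES cells, 6.27, 6.42 and 6.23 in untreated EBs, 6.28, 6.49 and 6.55 with DMSO and 6.32, 6.35 and 6.44 with ATRA. The ES arrays stood more than 2 log2 units above every EB array, and the difference was -3.26 ± 0.08, a fall of 9.60-fold (adjusted p = 1.18e-10). Trim30a has close paralogs that its probe set may not tell apart. Rtp4, a chaperone of receptors at the cell surface that also binds viral RNA, read 9.30, 9.20 and 9.29 in ES cells, 6.60, 6.86 and 6.86 in untreated EBs, 6.86, 6.64 and 6.82 with DMSO and 6.52, 6.68 and 6.65 with ATRA. It fell 5.62-fold (-2.49 ± 0.08, adjusted p = 3.94e-10). Ifi35, a partner of the interferon-induced protein Nmi, read 8.65, 8.69 and 8.99 in ES cells, 7.77, 7.74 and 7.62 in untreated EBs, 7.55, 7.60 and 7.78 with DMSO and 7.82, 7.87 and 7.66 with ATRA. It fell by 1.06 ± 0.09 (adjusted p = 2.05e-06). For these 3 genes the 9 EB arrays formed 1 low band below the ES arrays.

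Xaf1, a pro-apoptotic partner of the inhibitor XIAP, read 10.05, 9.95 and 10.09 in ES cells, 9.39, 9.30 and 9.43 in untreated EBs, 9.24, 9.37 and 9.23 with DMSO and 8.58, 8.52 and 8.61 with ATRA. It was lower in untreated EBs than in ES cells (-0.66 ± 0.06, adjusted p = 1.88e-06), and its ATRA arrays lay in a band of their own below all others. Samd9l, an antiviral and growth-restraining factor, read 7.92, 7.85 and 7.81 in ES cells, 7.81, 7.81 and 7.89 in untreated EBs, 7.37, 7.82 and 7.36 with DMSO and 6.93, 7.16 and 7.11 with ATRA. Its ES and untreated EB arrays overlapped (-0.02 ± 0.11, adjusted p = 0.911), and the low arrays were the 3 with ATRA and DMSO replicates 1 and 3. Bst2, the tether that holds budding virions, fell by 0.36 (adjusted p = 7.13e-04 by limma). Rsad2, or viperin, an enzyme that makes a chain-terminating nucleotide, fell by 0.30 (adjusted p = 0.0216). The Rsad2 call was lost without ES replicate 2, EB replicate 1 or EB replicate 3 and in 3 other settings, with differences from -0.30 to -0.15.

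**Figure D2:**
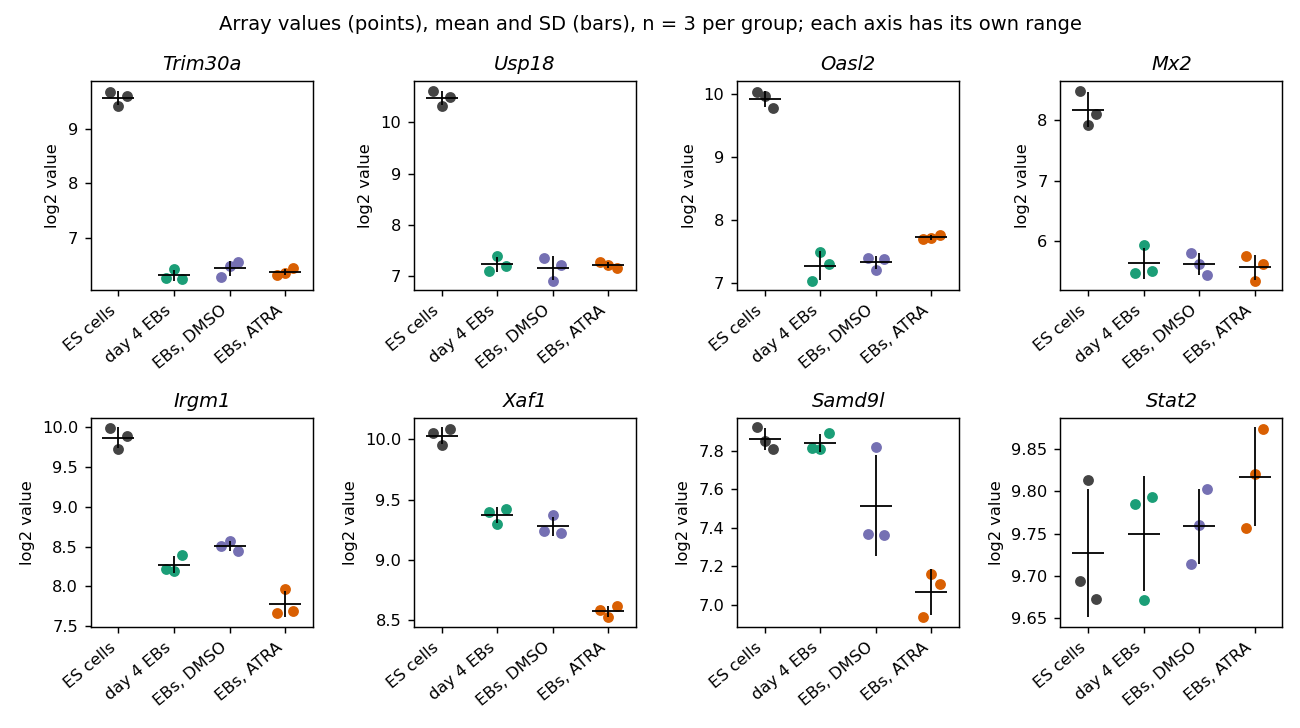
Level in log2 units of 8 genes on each array (points) by group, with horizontal bars at the group mean, vertical bars for the SD (n = 3) and a separate range for each axis. Trim30a, Usp18 and Mx2 step down between the ES and the EB groups, Oasl2 does so and is higher again with ATRA, Xaf1 and Irgm1 are lower again with ATRA, Samd9l is lowest with ATRA, and Stat2 overlaps between all groups.

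Genes with and without a motif match both fell. Of 10 measured genes with an ISRE core in a window, 9 fell, with a median difference of -0.90. Of 17 with a window and no core, 12 fell, with a median of -0.66. For the GAS, 5 of 7 genes with a match fell (median -0.50) and 16 of 20 without (median -0.68). Oasl2 and Herc6 held neither motif in the window and fell 6.27-fold and 4.11-fold, while Stat2, with a core, gave 0.02. The difference between genes with and without a match was not tested.

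Several of the genes are neighbours on a chromosome. With at most 1 other protein-coding gene between them, 16 of 37 genes listed as protein-coding in the RefSeq table lay in 7 runs. Examples are Parp14, Dtx3l and Parp9, or Psmb9, Tap1 and Psmb8. Members of a run could differ. Oasl2 fell 6.27-fold and its neighbour Oasl1 1.62-fold, and Oas2 fell 4.39-fold against 1.30-fold for Oas3. The Parp14 run moved alike, between -0.48 and -0.29. The differences between neighbours were not tested.

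With 12 h of DMSO, few genes of any kind were called. Between DMSO-treated and untreated EBs, 0 of the 34 genes were called by limma in either direction, where 0.537% of all genes were called higher and 0.211% lower. At an unadjusted p of 0.05, 3 of the 34 were higher and 2 lower, beside 1402 and 1854 of all 19938 genes. The median difference of the 34 was 0.01, and the range ran from -0.32 for Samd9l to 0.24 for Irgm1. Of the 149 genes called in the whole table, 71.8% were higher, 57.7% after quantile normalization and 87.0% after median centring. The 3 DMSO arrays of Samd9l read 7.37, 7.82 and 7.36, with replicate 2 apart from the other two. Without that array the gene was called lower by limma (-0.48, adjusted p = 0.0156).

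With 12 h of ATRA, 7 of the 34 genes changed against DMSO. Xaf1, Irgm1, Samd9l and Irf9 fell, and Oasl2, Parp9 and Oas2 rose. These are 3 higher and 4 lower (8.82% and 11.8%), close to the 6.26% and 7.05% called over all genes. The median difference was 0.03 for the 34 and 0.01 over all genes. Of the fibroblast markers, 2 rose, Pdgfrb (1.497) and Loxl1 (0.23). The 4 that fell were Dcn (-0.41), S100a4 (-0.40), Thy1 (-0.36) and Fbln2 (-0.34). The list mean was 8.21 to 8.26 on the DMSO arrays and 8.21 to 8.27 on the ATRA arrays. In that mean the large Pdgfrb rise offsets falls of other markers, so its near-equal values do not show that the single markers stayed level. The median difference of the list was -0.03.

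Xaf1 fell by 0.71 ± 0.06, which is 1.63-fold (adjusted p = 5.42e-06). Irgm1 fell by 0.73 ± 0.09, which is 1.66-fold (adjusted p = 1.32e-04). Both genes' ATRA arrays lay below all DMSO arrays, and both calls held in every alternative setting run. Samd9l fell by 0.45 ± 0.11 (adjusted p = 0.0133). Without DMSO replicate 2 the difference was -0.30, and the call was lost without ATRA replicate 1 (-0.38, adjusted p = 0.0631). Irf9 fell by 0.21 ± 0.06 (adjusted p = 0.0350), a call lost in 7 settings, without any of DMSO replicates 1, 2 and 3 or ATRA replicates 1 and 3 and under quantile normalization or median centring.

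The 3 genes that rose did so by little. Oasl2 gave 0.40 ± 0.10 (adjusted p = 0.0222), Parp9 0.21 ± 0.06 (adjusted p = 0.0363) and Oas2 0.19 ± 0.05 (adjusted p = 0.0341). All 3 had fallen from ES cells to EBs. With ATRA, Oasl2 averaged 7.73 ± 0.04 against 9.92 ± 0.13 in ES cells, Oas2 8.73 ± 0.06 against 10.49 ± 0.09, and Parp9 9.05 ± 0.04 against 9.18 ± 0.06 (SD, n = 3). The Parp9 ATRA arrays, at 9.08, 9.00 and 9.08, lay just below its ES arrays, at 9.24, 9.13 and 9.18. None of these 3 calls held through the removal of single arrays. Without DMSO replicate 2, Oasl2 was lost, as it was without any 1 of the 3 ATRA arrays (0.34 to 0.41). Oas2 was lost without any 1 of the DMSO arrays or without ATRA replicate 1 or 2, and Parp9 without DMSO replicate 1 or 3 or any 1 of the ATRA arrays. Both also lost the call under median centring.

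**Figure D3:**
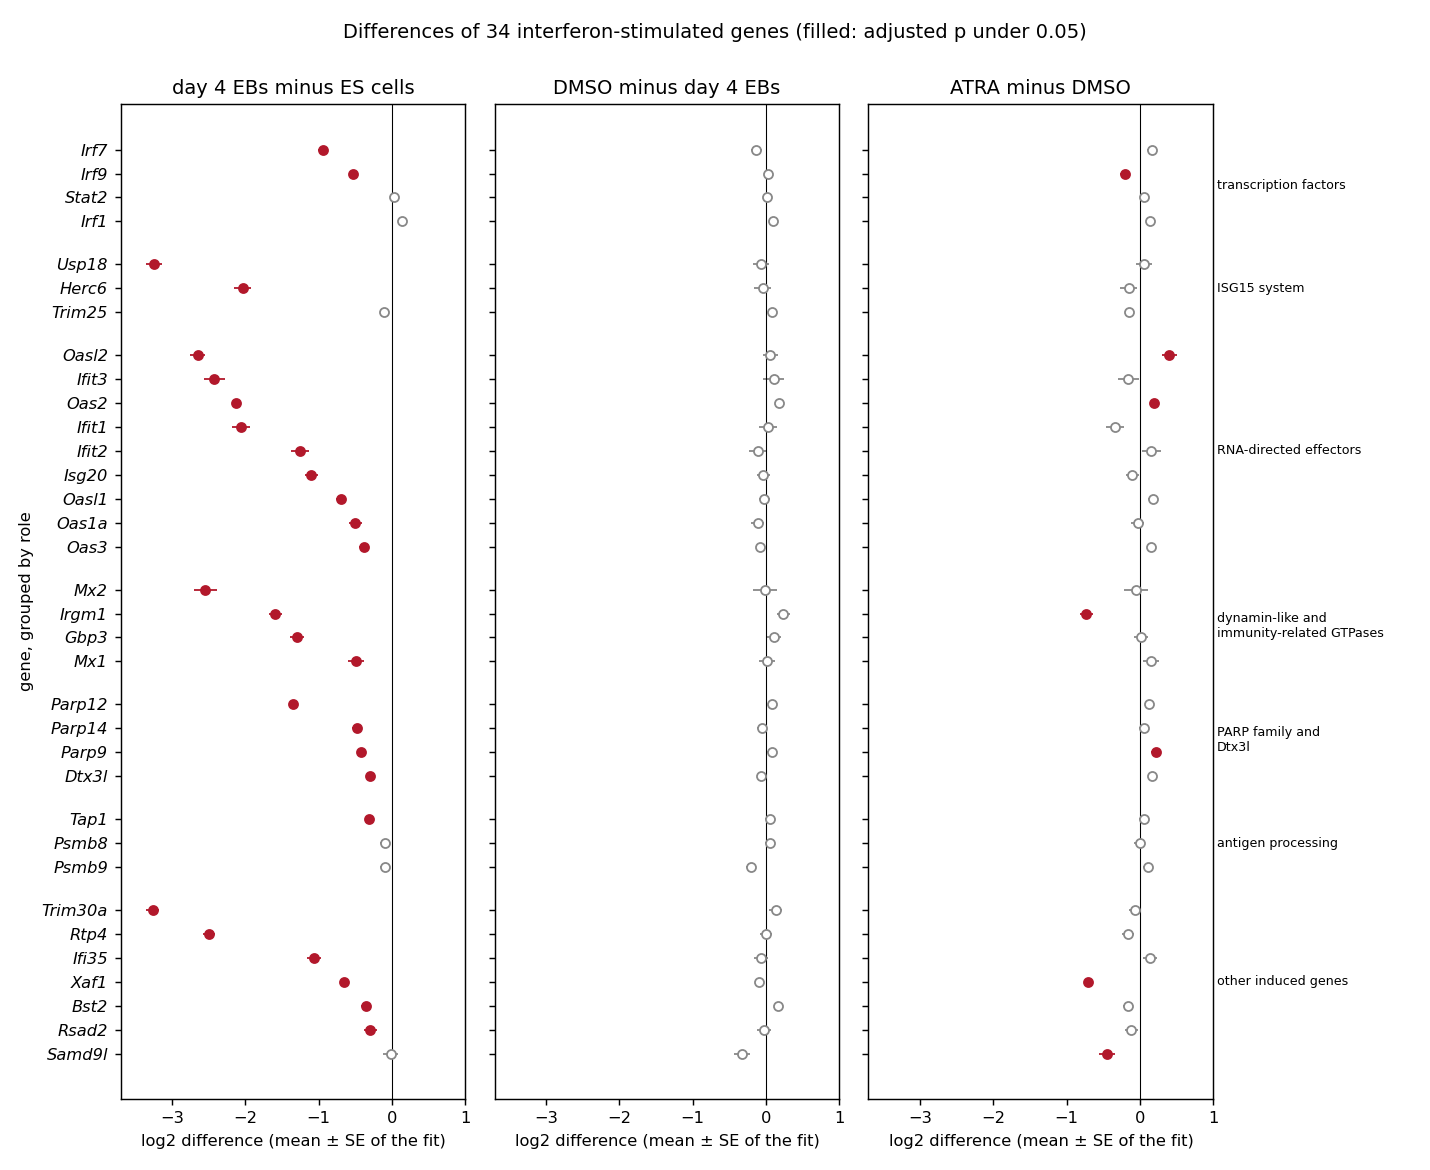
Log2 difference of each measured gene, with its standard error, for untreated EBs minus ES cells, DMSO minus untreated EBs and ATRA minus DMSO. Genes are in rows by role and filled points have an adjusted p under 0.05. The first comparison holds 28 filled points below 0, the next none, and the last 3 above 0 and 4 below 0.

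Against untreated EBs, a comparison that shares its arrays with the others, 5 genes were higher with ATRA (14.7%) and 4 lower, beside 7.79% and 10.6% of all genes. Oasl2 (0.45 ± 0.10), Oas2 (0.37 ± 0.05), Parp9 (0.29 ± 0.06), Irf1 (0.23 ± 0.05) and Parp12 (0.21 ± 0.05) were the higher ones. Xaf1 (-0.80 ± 0.06), Samd9l (-0.77 ± 0.11), Irgm1 (-0.49 ± 0.09) and Irf9 (-0.18 ± 0.06) were the lower ones. The Irf1 call (adjusted p = 0.0106) belongs to 1 of its probe sets; the other gave -0.17 (adjusted p = 0.198 by limma), and the mean of both gave 0.03 (adjusted p = 0.787). The Irf9 call (adjusted p = 0.0489) was lost in 10 settings, with differences of -0.20 to -0.15. The Parp12 call (adjusted p = 0.0198) was lost without EB replicate 3 or any 1 of the ATRA arrays.

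Other genes tied to interferon signalling were read from lists drawn up for this purpose. Their counts stand beside 17.8% of all genes called higher and 16.9% lower in EBs against ES cells. With DMSO the shares were 0.537% and 0.211%, and with ATRA against DMSO 6.26% and 7.05%. At an unadjusted p of 0.05, 4284 of all 19938 genes were higher and 4066 lower in EBs. With DMSO these counts were 1402 and 1854, and with ATRA against DMSO 2443 and 2645. Of 10 interferon ligand genes, 0 were called in EBs against ES cells, 0 with DMSO and 0 with ATRA against DMSO. At an unadjusted p of 0.05 there were 0, 1 and 0. The ligand means in ES cells ran from 4.32 for Ifna11 to 8.79 for Ifna5, and a low probe set can understate a change. Of 10 receptor and kinase genes, 2 rose, a share near that of all genes, and 6 fell from ES cells to EBs, all by less than 1.5-fold. The interferon gamma receptor chain gene Ifngr2 (-0.53) and Il10rb (-0.42), a chain of the interferon lambda receptor, were among those that fell, while the kinase gene Tyk2 (0.36) and the type I receptor gene Ifnar1 (0.13) rose. With ATRA against DMSO, Ifngr1 (0.62) and Il10rb (0.22) rose and Ifngr2 (-0.34) and Ifnar1 (-0.17) fell.

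Of 7 feedback inhibitors of the pathway, 1 rose and 3 fell in EBs: the cytokine signalling suppressors Socs3 (-0.47) and Socs1 (-0.27) and the repressor Irf2 (-0.36) fell, and the phosphatase gene Ptpn6 (0.24) rose. With ATRA against DMSO, 0 of the 7 were called, and 0 at an unadjusted p of 0.05. Of 14 nucleic acid sensing genes, a list that shares Trim25 with the measured effectors, 9 fell and 1 rose in EBs. The DNA-sensing adaptor gene Sting1 (-1.46), the endosomal RNA receptor gene Tlr3 (-1.28), the kinase gene Ikbke (-0.81) and Ddx58 (-0.76), which encodes RIG-I, had the largest falls, and the kinase gene Tbk1 (0.31) rose. With ATRA against DMSO, Ddx58 (-1.22) and its adaptor gene Mavs (-0.21) fell, and Zbp1 (0.16) rose.

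A further 34 interferon-induced genes outside the 39 gave 20 lower and 6 higher in EBs. Of the lower, 13 fell at least 1.5-fold, beside 840 of all 19938 genes tested. The DNA-sensor family genes Ifi205 (-2.64) and Ifi203 (-2.20), with Ifi27 (-2.22), had the largest falls among the 34. The secreted protein gene Lgals3bp (-1.82), the chemokine gene Cxcl10 (-1.73) and the class I light chain gene B2m (-0.95) also fell. Ifitm1 (0.90), known for its expression in germ cells and early embryonic tissue, and the RNA helicase gene Mov10 (0.56) were higher in EBs. With DMSO, 1 of the 34 was called, Lgals3bp (0.46), and with ATRA against DMSO 2 rose and 6 fell. The median EB minus ES difference of these 34 was -0.23, between that of the measured effectors and that of all genes.

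**Figure D4:**
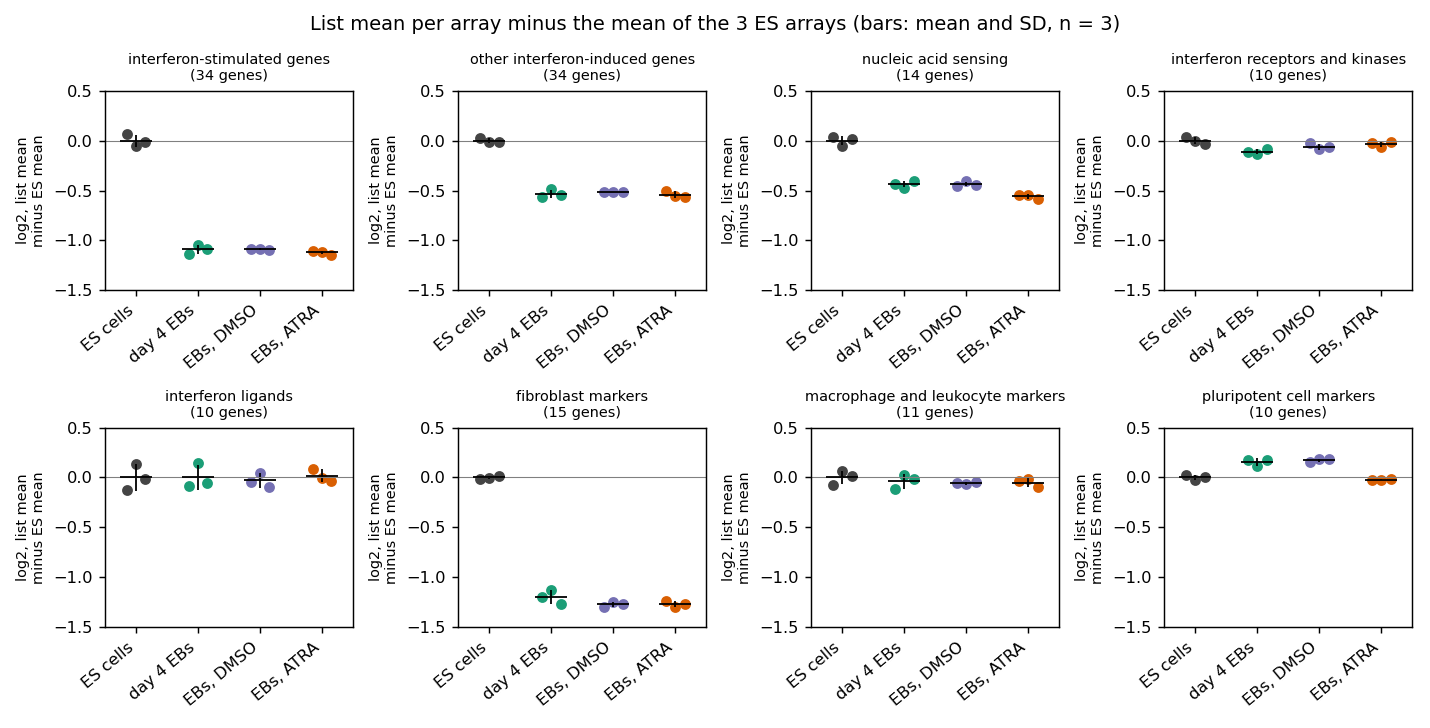
Mean of each of 8 gene lists on each array (points), in log2 units relative to the mean of the 3 ES arrays, by group, with bars at the group mean and SD (n = 3). The levels printed in this caption are list means before the ES mean is subtracted. On the ES arrays the interferon-stimulated genes are at 8.84 to 8.95, and on the 9 EB arrays at 7.75 to 7.84. The fibroblast markers also step down between ES cells and EBs. So do the other interferon-induced genes (9.11 to 9.16, then 8.56 to 8.64) and the nucleic acid sensing genes (9.07 to 9.15, then 8.53 to 8.71). The ligand and leukocyte lists overlap between groups.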

How the data were processed

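The authors deposited 1 table of log2 values for 35556 probe sets on 12 Affymetrix arrays, the log2 scale being read from the values. Total RNA came from RNeasy columns and was labelled as single-stranded cDNA with the WT Expression kit, per the labels' protocols. Background correction, normalization and summarization: not given in the sources used. Medians were nearly equal, so a change of total RNA per cell would not show, and low or high values may be compressed. The number of arrays limits the precision.

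Through the platform annotation, 21789 probe sets had 1 symbol, 1621 had several and 12146 were unlisted. Gene identifiers of 21698 were found in RefSeq GRCm38.p6, which changed 0 symbols. limma 3.58.1 (R 4.3.3) was fitted with a mean per group over 12 arrays, followed by eBayes, with p-values adjusted over 19938 genes and a threshold of 0.05. The fit was tested on simulated data. For ATRA against DMSO it recovered 20% of changes of 0.25 log2 units, 80% of those of 0.5 and 100% of those of 1. Of its 157 calls, 7 were false. Small differences could therefore go uncalled. The 4 comparisons share arrays. A gene was given array by array where it was called and at least 1.5-fold in any comparison; any measured gene, and called genes of the other lists, may be named. The genes and lists were chosen with earlier results of these data known. Same-numbered replicates deviated together with correlations of -0.13 to 0.51, so the numbers were not taken as pairs. Alternatives were quantile normalization, median centring, a filter on low values, the mean of all probe sets of a gene, array weights, a robust prior with an intensity trend, fits on 2 groups, a replicate block and arrays left out. Promoter windows were searched with Python 3.11.15.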

Additional observations from a re-analysis of the deposited data

How the results depend on the processing

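No gene of the 34 reversed a called direction under any alternative run. The fall into EBs held in count under all but the filter, which keeps only genes above the median mean value: 15 of the genes passed it, with 1 higher, 11 lower and a median of -0.42, fewer being tested. With array weights that median was -0.75. With replicate 2 of both ES cells and untreated EBs left out, 27 were lower and 0 higher, with a median of -0.67. Leaving out single arrays gave 27 to 28 lower, 0 to 1 higher (1, Irf1, without EB replicate 2), medians of -0.72 to -0.63 and 6013 to 7102 calls over all genes.

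For DMSO against untreated EBs the median was 0.0054, -0.0027 after quantile normalization and -0.0049 with array weights, and the cause was not tested. The filter called 1 gene higher (Oas2). Calls over all genes numbered 149, and 253 (quantile), 761 (filter), 626 (trend and robust prior), 25 (2 groups only), 62 (replicate block) and 27 (ES replicate 2 and EB replicate 2 left out). Without single arrays they numbered 0 to 128: 0 without EB replicate 1 or DMSO replicate 1, 2 without DMSO replicate 3, 33 and 48 without EB replicates 2 and 3. Of the 34 genes, 0 were then higher and 0 to 1 lower (Samd9l without DMSO replicate 2), with medians of -0.0268 to 0.0217.

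For ATRA against DMSO the count higher was 3, and 5 (quantile), 1 (median centring) and 6 (array weights); the count lower was 4, and 7 with array weights, which made 4311 calls over all genes against 2655. Single arrays left out gave 0 to 2 higher (0 without ATRA replicate 1 or 2, 1 without DMSO replicate 1 or 3 or ATRA replicate 3), 2 to 4 lower (2 without ATRA replicate 1), medians of 0.001 to 0.05 and 1868 to 2066 calls. Against untreated EBs they gave 3 to 5 higher (3 without ATRA replicate 2), 3 to 6 lower, medians of 7e-04 to 0.05 and 2495 to 3411 calls.

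The replicate block left 28 genes lower in EBs, 3 higher and 4 lower for ATRA against DMSO, and 5 higher and 3 lower against untreated EBs. With 3 arrays a group, small differences near the threshold are limited by the spread between arrays, and a probe set near the bottom of the scale can understate a change.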
